A study of Mus musculus with 32 samples.

Results

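The genes described here are the 42 members of the integrated stress response and the unfolded protein response that were picked by gene symbol from the deposited count table. All 42 had a row among the 39017 genes, and all 42 passed the filter on low counts that left 18484 genes for testing. They fall into an ATF4 amino acid arm of 31 genes and an endoplasmic reticulum (ER) arm of 11 genes. RNA had been sequenced from 4 lines of mouse embryonic fibroblasts, in which an ATM knock-out was paired with the wild-type cells called wtATM and an ATMIN knock-out with those called wtATMIN. Every line received either aphidicolin (APH, 1 µM), which blocks the replicative DNA polymerases, or the solvent DMSO, and was sampled at 24 h or at 4 h, which gives 16 groups of 2 samples. The kinase ATM signals DNA breaks, and ATMIN is a transcription factor with zinc fingers that can bind ATM. The study addressed which transcriptional changes under replication stress depend on ATM or on ATMIN. The labels give no allele, embryo, clone or passage, so the effect of a knock-out and that of the cell line cannot be told apart, and whether paired samples came from separate cultures is not stated. The p-values therefore measure only the spread between these samples, which may be technical.

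In the integrated stress response, kinases that sense unfolded ER proteins, amino acid shortage, viral RNA or haem shortage phosphorylate the translation factor eIF2. General translation then slows while the mRNA of ATF4 is translated better, and ATF4 switches on genes for amino acid import, amino acid synthesis and tRNA charging, together with regulators such as CHOP (Ddit3). The unfolded protein response adds the sensors IRE1, which splices Xbp1 mRNA, and ATF6, and both raise the chaperones of the ER. PERK (Eif2ak3) belongs to both responses, and the ER arm here holds it together with the ER sensors, chaperones and degradation factors. Fibroblasts secrete collagen and other matrix proteins through the ER. RNA levels do not report ATF4 translation, eIF2 phosphorylation or Xbp1 splicing, which were not measured.

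Total counts ran from 9321329 to 21020662 per library. Levels below are CPM (reads per 1000000 reads of the scaled library), and an APH response is the log2 fold change of APH over DMSO within a line at a given time, followed by its standard error. Values listed for the 4 lines run in the order ATM knock-out, wtATM, ATMIN knock-out, wtATMIN unless lines are named. Per kilobase of gene length, the ER chaperones Hsp90b1 and Hspa5 led the members in the 16 DMSO libraries, with mean levels of 576 and 377 RPKM (CPM per kilobase). The other members listed as chaperones and folding genes ran from 5.97 RPKM (Dnajb9) to 116 RPKM (Manf). Atf4 had 184 RPKM, whereas Trib3 had 12.8 RPKM, Nupr1 had 11.9 RPKM and Slc7a3 had the lowest level at 1.97 RPKM. In the DMSO libraries at 4 h, Atmin was at 4.70 and 4.85 CPM in the ATMIN knock-out line, against 26.0 and 25.0 CPM in wtATMIN, and it was lower in that knock-out line in all 4 conditions. Atm in the ATM knock-out line had 25.3 and 17.8 CPM, against 50 and 52.2 CPM in wtATM. In APH at 24 h Atm did not pass the test (log2 fold change -0.12 ± 0.15, adjusted p = 0.509, edgeR quasi-likelihood test, Benjamini-Hochberg). The labels do not say which part of either gene was removed, and the counts cover whole genes. Fibroblast marker RNA summed to between 7170 and 31700 CPM per library over 10 genes, although Thy1 and Lum were at or near 0 in many libraries. Over all libraries the epithelial markers (6 genes) summed to at most 16.4 CPM, the blood markers (6 genes) to at most 36.0 CPM and the endothelial markers (5 genes) to at most 2.89 CPM. The 4 h results are touched by library features. Gm42418, an annotated gene that overlaps ribosomal RNA sequence, had 252 to 5754 CPM in the 24 h libraries against 13783 to 97900 CPM in the 4 h libraries. The samples of the ATM knock-out line in APH at 4 h resembled each other least, with a correlation of log values of 0.9877 against 0.9955 to 0.9978 in the other 15 groups. In bulk RNA, fewer cells of a type and less RNA per cell cannot be told apart.

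After 24 h of APH, the regulator Nupr1 and the stress effectors Sesn2, Chac1 and Ppp1r15a rose in all 4 lines, and Trib3, Ddit3 and Ddit4 rose in every line but the ATMIN knock-out line. The other 4 regulators and the other 2 effectors rose in at most 2 lines each. In the ATM knock-out line 19 of 31 ATF4-arm genes rose and 3 fell. The counts were 11 and 5 in wtATM, 6 and 15 in the ATMIN knock-out line, and 12 and 4 in wtATMIN. Over all genes tested, 15.7% rose and 12.2% fell in the ATM knock-out line, 14.4% and 14.3% did so in wtATM, 14.3% and 15.8% in the ATMIN knock-out line, and 13.6% and 15.3% in wtATMIN. Called in either direction were 27.9% of genes for the ATM knock-out line, 28.7% for wtATM, 30.2% for the ATMIN knock-out line and 28.8% for wtATMIN. Median APH responses of the arm were 0.28 for the ATM knock-out line, 0.09 for wtATM, -0.19 for the ATMIN knock-out line and 0.03 for wtATMIN, and the medians over all genes lay between 0 and 0.01. With scaling to library size alone, the ATMIN knock-out line had 8 of the 42 members higher and 7 lower, in place of 8 and 16, and wtATMIN had 17 and 3, in place of 12 and 6.

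**Figure D1:**
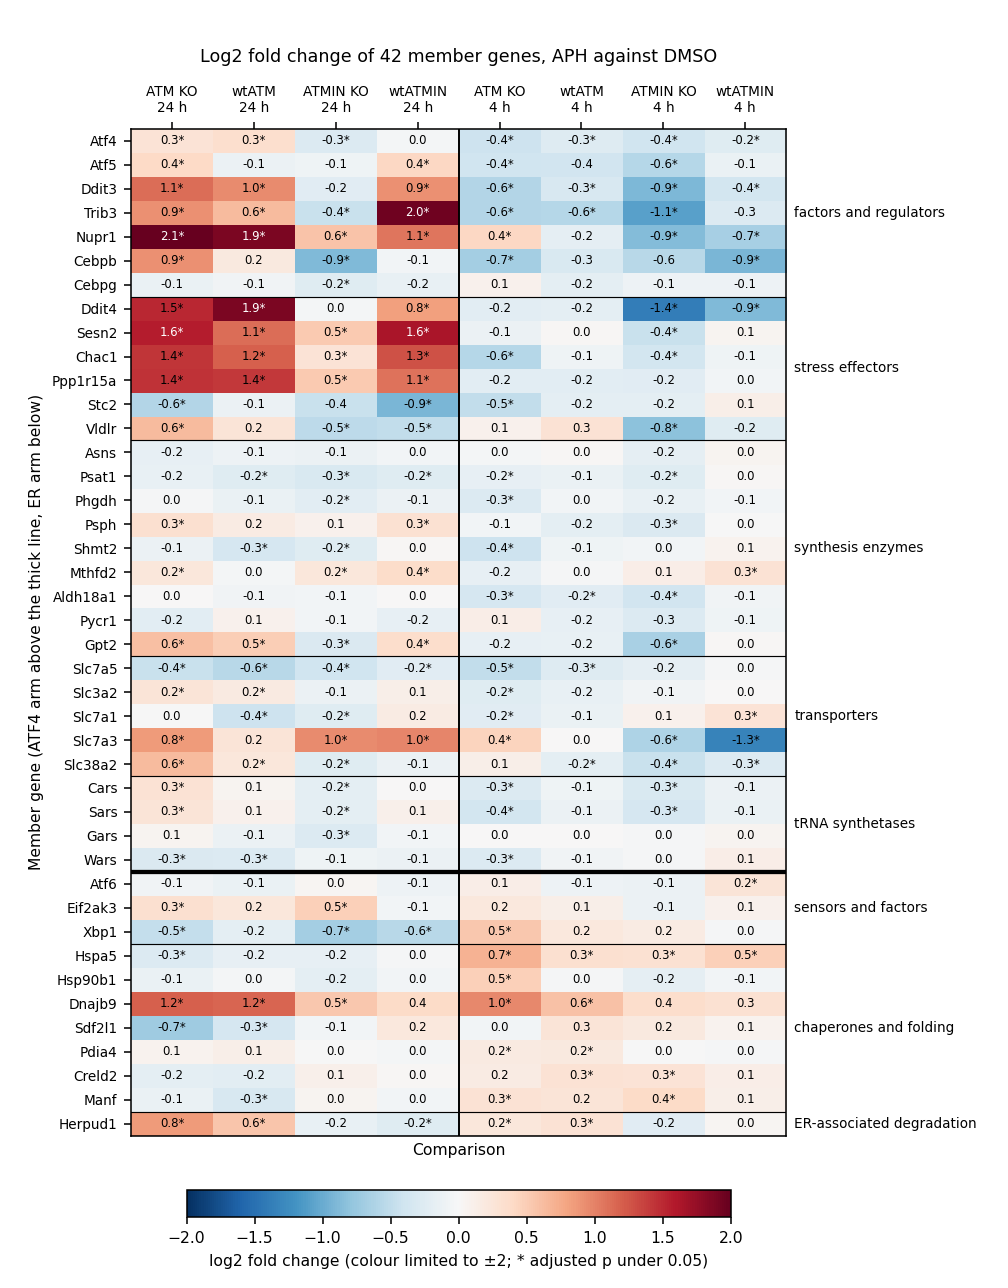
Log2 fold change of APH over DMSO for all 42 members (rows, by role) in the 4 lines at 24 h (left) and 4 h (right), where a star marks an adjusted p under 0.05. Nupr1, Sesn2, Chac1 and Ppp1r15a are red in all 4 lines at 24 h, and Atf4 and Ddit3 are blue in all 4 lines at 4 h.

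Of the 7 factors and regulators, 6 rose in ATM knock-out cells, 4 in wtATM, 1 in the ATMIN knock-out line and 4 in wtATMIN, while 4 fell in the ATMIN knock-out line and none in the others. Over all genes, 13.6% to 15.7% rose and 12.2% to 15.8% fell in these lines at 24 h. Nupr1, which encodes a small chromatin protein induced by stress, had 93.6 and 82.7 CPM in APH in the ATM knock-out line at 24 h, against 19.3 and 21.2 CPM in DMSO. In wtATM it had 33.4 and 29.3 CPM in APH, against 8.47 and 8.54 CPM in DMSO. In the ATMIN knock-out line it had 97.9 and 98.2 CPM in APH, against 65.7 and 66.6 CPM in DMSO, and in wtATMIN 49.3 and 44.1 CPM, against 22.4 and 22.1 CPM. All APH libraries lay above the DMSO libraries of their line. The APH responses were 2.12 ± 0.10, 1.88 ± 0.12, 0.57 ± 0.09 and 1.07 ± 0.10 in that order of lines, with adjusted p of at most 5.58e-06 (edgeR quasi-likelihood test, Benjamini-Hochberg).

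Trib3 encodes a pseudokinase that binds ATF4 and CHOP and restrains them. It had 25.8 and 27.3 CPM in APH in the ATM knock-out line at 24 h, against 15.2 and 13 CPM in DMSO, and 18.0 and 19.0 CPM in APH in wtATM, against 12.8 and 10.9 CPM in DMSO. In wtATMIN it had 26.3 CPM in each APH library, against 7.12 and 6.38 CPM in DMSO. In the ATMIN knock-out line the order was the other way round, with 46.2 CPM in each APH library, against 63.8 and 61.2 CPM in DMSO. Trib3 thus rose in 3 lines, by 0.91 ± 0.12, 0.64 ± 0.13 and 1.95 ± 0.13 on the log2 scale, and fell by 0.44 on the log2 scale (SE 0.10) in the ATMIN knock-out line, with adjusted p of 3.01e-07, 0.000142, 6.21e-14 and 0.000727 (edgeR quasi-likelihood test, Benjamini-Hochberg).

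Ddit3, which encodes the transcription factor CHOP, was also higher in 3 lines. At 24 h it had 70.7 and 67.4 CPM in APH in the ATM knock-out line, against 33.4 and 30.7 CPM in DMSO. In wtATM it had 68.9 and 71.8 CPM in APH, against 36.5 and 36.0 CPM in DMSO, and in wtATMIN 31.8 and 29.1 CPM, against 16.6 and 15.6 CPM. In the ATMIN knock-out line the levels were 40.3 and 38.0 CPM in APH, against 43.1 and 49.1 CPM in DMSO. It rose in the first 3 of these lines by 1.11 ± 0.09, 0.95 ± 0.09 and 0.92 ± 0.10, with adjusted p of at most 1.72e-08, whereas in the ATMIN knock-out line the response was -0.23 ± 0.09 with adjusted p = 0.0564 (edgeR quasi-likelihood test, Benjamini-Hochberg). Ddit3 overlaps Mars, which lies on the other strand and averaged 237 CPM, and the strand setting of the counting is not given in the sources used here. Mars itself had responses of -0.02, -0.32, -0.07 and -0.02 at 24 h in the ATM knock-out, wtATM, ATMIN knock-out and wtATMIN lines.

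Atf4 RNA itself moved less. At 24 h it had 475 and 484 CPM in APH in the ATM knock-out line, against 394 and 398 CPM in DMSO, and 372 and 360 CPM in wtATM, against 281 and 303 CPM. In the ATMIN knock-out line it had 278 and 264 CPM in APH, against 320 and 332 CPM in DMSO, and in wtATMIN 217 and 228 CPM, against 236 and 221 CPM. The groups overlapped in wtATMIN and in no other line. Atf4 rose by 0.28 ± 0.07 in the ATM knock-out line and by 0.33 ± 0.07 in wtATM, fell by 0.27 on the log2 scale (SE 0.07) in the ATMIN knock-out line and had a response of -0.04 ± 0.07 in wtATMIN, with adjusted p of 0.00158, 0.00025, 0.00217 and 0.734 (edgeR quasi-likelihood test, Benjamini-Hochberg). Scaled to library size alone, the call in the ATMIN knock-out line was lost. Of the other factors, Atf5, a relative of ATF4, rose in the ATM knock-out line (0.40) and in wtATMIN (0.42). Cebpb, a partner of ATF4 on DNA, rose in the ATM knock-out line (0.91) and fell by 0.88 on the log2 scale in the ATMIN knock-out line. The Atf5 call in wtATMIN and the Cebpb call in the ATM knock-out line were lost with any 1 of the 4 libraries left out, and the Atf5 call in the ATM knock-out line without 3 of them. Cebpb reads can be shared with Tmem189 on the other strand.

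Of the 6 stress effectors, 5, 4, 3 and 4 rose at 24 h in the ATM knock-out, wtATM, ATMIN knock-out and wtATMIN lines, and 1, 0, 1 and 2 fell. All-gene shares in these lines were 13.6% to 15.7% higher and 12.2% to 15.8% lower. Sesn2, whose product senses leucine and restrains the growth kinase mTORC1, had 53.6 and 52.3 CPM in APH in the ATM knock-out line, against 18.2 and 17.4 CPM in DMSO. In wtATM it had 70.7 and 74.6 CPM, against 33.0 and 34.0 CPM, and in the ATMIN knock-out line 53.7 and 52.7 CPM, against 36.8 CPM in each DMSO library. In wtATMIN it had 37.3 and 37.1 CPM in APH, against 13.3 and 10.5 CPM in DMSO. Its groups were apart in every line, and its responses were 1.57 ± 0.12, 1.12 ± 0.11, 0.53 ± 0.11 and 1.63 ± 0.12.

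Ppp1r15a encodes GADD34, the phosphatase subunit that reverses eIF2 phosphorylation. At 24 h it had 60.8 and 63.4 CPM in APH in the ATM knock-out line, against 23.1 and 22.7 CPM in DMSO, and 58.4 and 58.8 CPM in wtATM, against 21.7 and 22.3 CPM. The ATMIN knock-out line had 45.4 and 41.4 CPM in APH, against 31.5 and 28.8 CPM in DMSO, and wtATMIN had 54.3 and 54.0 CPM, against 24.6 and 26.5 CPM. No APH library overlapped a DMSO library, and the responses were 1.44 ± 0.09, 1.41 ± 0.09, 0.52 ± 0.09 and 1.09 ± 0.09.

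Chac1, an enzyme that degrades glutathione, had 36.1 and 37.9 CPM in APH in the ATM knock-out line at 24 h, against 14.9 and 12.5 CPM in DMSO, and 34.0 and 35.1 CPM in wtATM, against 14.9 and 15.3 CPM. In the ATMIN knock-out line it had 34.5 and 36.3 CPM in APH, against 31.1 and 27.2 CPM in DMSO, and in wtATMIN 18.5 and 19.0 CPM, against 8.30 and 6.93 CPM. The 3 lines other than wtATMIN reached a similar level in APH and differed more in DMSO. Responses were 1.43 ± 0.11, 1.19 ± 0.11, 0.28 ± 0.10 and 1.28 ± 0.13. The call in the ATMIN knock-out line (adjusted p = 0.0361, edgeR quasi-likelihood test, Benjamini-Hochberg) was lost without DMSO replicate 2, without APH replicate 1 and without APH replicate 2.

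Ddit4 encodes REDD1, another inhibitor of mTORC1. It had 94.9 and 111 CPM in APH in the ATM knock-out line at 24 h, against 39.9 and 32.8 CPM in DMSO, and 168 and 185 CPM in wtATM, against 47.3 and 48.0 CPM. In wtATMIN it had 69.0 and 79.0 CPM, against 43.5 and 40.3 CPM, while in the ATMIN knock-out line the APH libraries, at 67.7 and 77.3 CPM, lay on either side of the DMSO libraries, at 74.5 and 74.0 CPM. Responses were 1.5 ± 0.11, 1.89 ± 0.11 and 0.82 ± 0.11 in those 3 lines and -0.04 ± 0.11 in the ATMIN knock-out line. For Sesn2, Ppp1r15a, Chac1 and Ddit4, every adjusted p of a rise named here other than that of Chac1 in the ATMIN knock-out line was at most 0.000195 (edgeR quasi-likelihood test, Benjamini-Hochberg). The other effectors went other ways. Stc2, a secreted glycoprotein, fell by 0.59 on the log2 scale in the ATM knock-out line and by 0.92 in wtATMIN, where it had no more than 2.86 CPM. Vldlr, a lipoprotein receptor, rose by 0.63 in the ATM knock-out line and fell by 0.52 and 0.49 on the log2 scale in the ATMIN knock-out and wtATMIN lines.

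**Figure D2:**
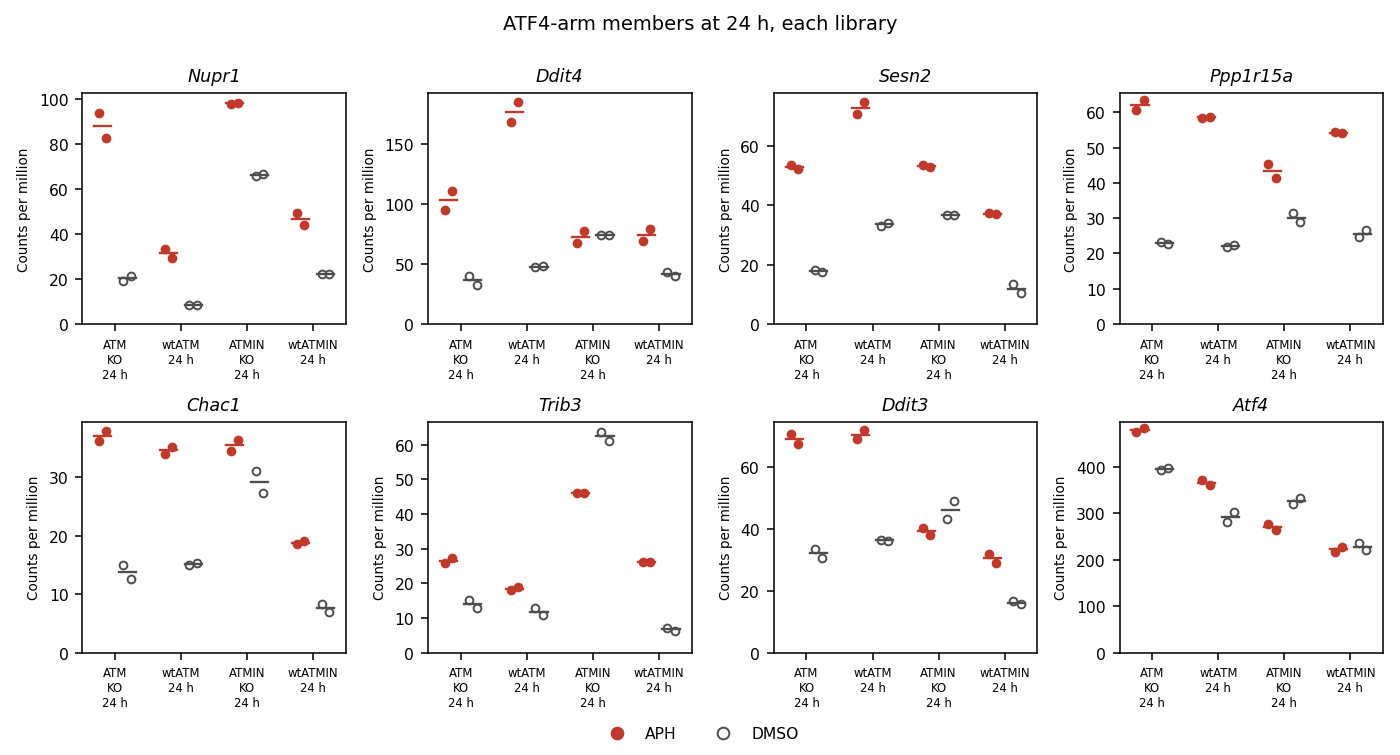
CPM (linear axis from 0) of 8 ATF4-arm genes in each 24 h library, with APH as filled and DMSO as open circles and short lines at the means of 2 libraries, by line. The APH points of Nupr1, Sesn2, Ppp1r15a and Chac1 lie above the DMSO points in all 4 lines, and those of Trib3 and Ddit3 lie below them in the ATMIN knock-out line.

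Of the 9 synthesis enzymes, 3, 1, 1 and 3 rose at 24 h in the ATM knock-out, wtATM, ATMIN knock-out and wtATMIN lines, and 0, 2, 4 and 1 fell. Between 13.6% and 15.7% of all genes rose in a line, and 12.2% to 15.8% fell. Whether the list differed from these shares was not tested. Asns, which makes asparagine and is a standard ATF4 target, had 172 and 161 CPM in APH in the ATM knock-out line at 24 h, against 185 and 190 CPM in DMSO, and its responses of -0.17, -0.10, -0.11 and -0.05 passed the test in none of the 4 lines. Psat1, of the serine pathway, fell in wtATM (-0.25), in the ATMIN knock-out line (-0.31) and in wtATMIN (-0.24). Mthfd2, of mitochondrial folate metabolism, rose by 0.23 in the ATM knock-out line, by 0.22 in the ATMIN knock-out line and by 0.36 in wtATMIN. Gpt2, the mitochondrial alanine aminotransferase, rose by 0.60, 0.49 and 0.35 in the ATM knock-out, wtATM and wtATMIN lines and fell by 0.29 on the log2 scale in the ATMIN knock-out line, where the call was lost without APH replicate 2 and with scaling to library size alone. Aldh18a1 and Pycr1, of proline synthesis, passed the test in no line.

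Of the 5 transporters, 3, 2, 1 and 1 rose and 1, 2, 3 and 1 fell in the same lines. Slc7a5, the light chain of the large neutral amino acid carrier, was the only member to fall in all 4 lines at 24 h, with responses of -0.44, -0.56, -0.40 and -0.22. The call in wtATMIN (adjusted p = 0.0318, edgeR quasi-likelihood test, Benjamini-Hochberg) was lost with any 1 of its 4 libraries left out and with scaling to library size alone. Its counts can be shared with Gm20388 on the other strand. The heavy chain Slc3a2 rose by 0.25 in the ATM knock-out line and 0.18 in wtATM. Slc7a3, a carrier of cationic amino acids, rose by 0.85, 0.95 and 0.98 in the ATM knock-out, ATMIN knock-out and wtATMIN lines from levels of at most 18.3 CPM in DMSO. Of the 4 tRNA synthetases, 2 rose and 1 fell in the ATM knock-out line, 1 fell in wtATM, 3 fell in the ATMIN knock-out line and none passed the test in wtATMIN. Beside both of these short lists, 13.6% to 15.7% of all genes rose and 12.2% to 15.8% fell in a line. A difference of the lists from these shares was not tested.

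Across lines, 10 ATF4-arm genes rose in at least 3 of the 4 lines at 24 h, and 2 fell in at least 3. Among all genes tested, 6.92% rose and 7.33% fell in at least 3 lines. The fold changes of a line share no libraries with those of another line. All calls come from the same fit, however, with shared scaling and a shared estimate of spread. The members were chosen with earlier results of these data known.

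Promoter sequence is shown for members that rose together and for some that did not, because ATF4 with a C/EBP partner is known to bind the element TGATGNAA and because ER stress acts through the ER stress element, which is CCAAT, then 9 bases of any kind, then CCACG. Windows of 300 bases, 250 before and 50 after the start site, came from RefSeq on build GRCm38.p6 and were matched by symbol for 36 of the 42 members. Both strands were searched, and neither pattern overlapped the other in the windows shown. TGATGNAA lay in the windows of 7 of 27 ATF4-arm members (Asns, Chac1, Gars, Nupr1, Pycr1, Trib3 and Vldlr) and of 1 of 9 ER-arm members (Herpud1), and in 4.51% of all genes with a window. Of the ATF4-arm members that rose in at least 3 lines at 24 h, 3 of 9 with a window held it, as did 4 of the 18 others. The ER stress element lay in the windows of Hspa5, Hsp90b1 and Creld2, which are 3 of 9 ER-arm members, in 0 of 27 ATF4-arm members and in 0.137% of all genes. The windows below run 5′ to 3′ along the gene, capitals mark a match, and a match on the other strand appears as the reverse complement of the element. Chac1 (chr2:119350992-119351291, plus strand), Nupr1 (chr7:126625421-126625720, minus strand) and Trib3 (chr2:152344011-152344310, minus strand) rose at 24 h in at least 3 lines, and Asns (chr6:7693160-7693459, minus strand) holds the same element and was called in no line. Hspa5 (chr2:34771840-34772139, plus strand) rose at 4 h in every line, and Hsp90b1 (chr10:86705395-86705694, minus strand) holds the ER stress element at 2 places and rose at 4 h in the ATM knock-out line alone.
Chac1: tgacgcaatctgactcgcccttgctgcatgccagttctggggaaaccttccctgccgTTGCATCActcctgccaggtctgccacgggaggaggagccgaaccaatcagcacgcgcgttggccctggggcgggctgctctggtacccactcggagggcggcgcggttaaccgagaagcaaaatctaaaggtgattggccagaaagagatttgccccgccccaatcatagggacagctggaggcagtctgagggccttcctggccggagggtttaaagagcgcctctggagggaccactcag
Nupr1: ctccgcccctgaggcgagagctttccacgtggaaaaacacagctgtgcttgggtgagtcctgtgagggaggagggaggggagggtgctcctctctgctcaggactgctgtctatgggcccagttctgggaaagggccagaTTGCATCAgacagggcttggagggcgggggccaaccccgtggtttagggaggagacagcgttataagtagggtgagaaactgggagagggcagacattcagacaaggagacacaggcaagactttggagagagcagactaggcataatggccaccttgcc
Trib3: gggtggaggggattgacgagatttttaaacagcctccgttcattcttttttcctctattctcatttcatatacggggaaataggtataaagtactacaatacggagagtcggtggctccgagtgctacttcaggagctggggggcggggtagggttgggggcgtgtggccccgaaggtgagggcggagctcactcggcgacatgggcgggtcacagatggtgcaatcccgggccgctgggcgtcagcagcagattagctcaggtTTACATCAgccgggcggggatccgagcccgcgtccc
Asns: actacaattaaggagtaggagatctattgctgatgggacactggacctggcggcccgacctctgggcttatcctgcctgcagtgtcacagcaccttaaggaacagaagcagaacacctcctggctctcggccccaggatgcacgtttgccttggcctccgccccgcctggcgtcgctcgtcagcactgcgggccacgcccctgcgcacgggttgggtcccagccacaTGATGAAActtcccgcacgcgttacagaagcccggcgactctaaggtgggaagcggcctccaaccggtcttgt
Hspa5: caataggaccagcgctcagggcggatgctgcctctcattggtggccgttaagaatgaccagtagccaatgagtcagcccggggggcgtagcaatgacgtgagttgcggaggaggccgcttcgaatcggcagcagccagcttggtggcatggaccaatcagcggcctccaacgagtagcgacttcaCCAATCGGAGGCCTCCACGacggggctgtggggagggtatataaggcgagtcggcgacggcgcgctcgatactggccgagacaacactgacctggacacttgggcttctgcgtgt
Hsp90b1: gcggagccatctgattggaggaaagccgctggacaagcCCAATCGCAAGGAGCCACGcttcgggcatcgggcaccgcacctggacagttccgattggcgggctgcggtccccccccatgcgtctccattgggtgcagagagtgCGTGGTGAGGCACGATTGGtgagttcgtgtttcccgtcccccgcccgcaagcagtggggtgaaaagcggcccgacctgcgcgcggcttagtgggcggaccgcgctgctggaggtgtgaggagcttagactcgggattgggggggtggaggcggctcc
The Trib3 match begins 15 bases into the transcript and that of Asns 23 bases before the start. A match describes these letters only, and binding was not measured.

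For the 11 ER-arm genes at 24 h, ATM knock-out cells had 3 higher and 3 lower, wtATM had 2 and 2, the ATMIN knock-out line had 2 and 1, and wtATMIN had 0 and 2. That is 54.5%, 36.4%, 27.3% and 18.2% of the arm called, where 27.9%, 28.7%, 30.2% and 28.8% of all genes were called. Dnajb9, the ER co-chaperone ERdj4, had 35.9 and 35.2 CPM in APH in the ATM knock-out line, against 14.8 and 16.4 CPM in DMSO, and 35.2 and 27.2 CPM in wtATM, against 13.4 and 14.5 CPM. The ATMIN knock-out line had 27.2 and 25.3 CPM, against 17.1 and 19.0 CPM, and wtATMIN had 8.33 and 10.7 CPM, against 7.03 and 7.48 CPM. The groups did not overlap, and the responses were 1.19 ± 0.13, 1.17 ± 0.13, 0.54 ± 0.13 and 0.39 ± 0.16, with adjusted p of 5.98e-09, 9.55e-09, 0.00124 and 0.0609 (edgeR quasi-likelihood test, Benjamini-Hochberg).

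Xbp1, the transcription factor of the IRE1 branch, moved the other way at 24 h. It had 43.0 and 44.4 CPM in APH in the ATM knock-out line, against 60.7 and 60.3 CPM in DMSO, and 47.0 and 40.6 CPM in wtATM, against 49.7 and 51.3 CPM. In the ATMIN knock-out line it had 18.4 and 17.0 CPM, against 25.6 and 31.3 CPM, and in wtATMIN 23.7 and 22.6 CPM, against 34.7 and 33.1 CPM. Every APH library was below the DMSO libraries of its line. Xbp1 fell in the ATM knock-out (-0.47 ± 0.09), ATMIN knock-out (-0.68 ± 0.11) and wtATMIN (-0.55 ± 0.10) lines, and had a response of -0.20 ± 0.09 in wtATM, with adjusted p of 0.000227, 6.81e-06, 6.7e-05 and 0.105 (edgeR quasi-likelihood test, Benjamini-Hochberg). Herpud1, of ER-associated degradation, rose by 0.85 and 0.55 in the ATM knock-out and wtATM lines and fell by 0.24 on the log2 scale in wtATMIN, a call that was lost with DESeq2, with scaling to library size alone and without 3 of the 4 libraries. Of the abundant chaperones, Hsp90b1 passed the test in no line. Hspa5, the ER Hsp70 chaperone BiP, fell by 0.27 on the log2 scale in the ATM knock-out line and had responses of -0.17, -0.17 and -0.02 in the wtATM, ATMIN knock-out and wtATMIN lines.

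At 4 h of APH most members called in the ATF4 arm were lower and all those called in the ER arm were higher, although in both wild-type lines most members of either arm were not called. No test of the difference between the arms was made. Of the 31 ATF4-arm genes, 17 fell and 2 rose in the ATM knock-out line, 6 fell and none rose in wtATM, 17 fell and none rose in the ATMIN knock-out line, and 7 fell and 2 rose in wtATMIN. Of the 11 ER-arm genes, 7, 5, 3 and 2 rose in the same lines and none fell in any. Over all genes tested, 14% rose and 15.4% fell in the ATM knock-out line, 2.82% and 2.76% did so in wtATM, 9.48% and 10.9% in the ATMIN knock-out line, and 7.25% and 7.75% in wtATMIN, which makes 29.4%, 5.58%, 20.4% and 15% called in either direction. Median responses of the ATF4 arm were -0.22, -0.15, -0.31 and -0.07 and those of the ER arm 0.22, 0.25, 0.17 and 0.08, beside all-gene medians between -0.02 and 0. These counts rest on single libraries in 3 lines. The 11 members called in wtATM became 0 without DMSO replicate 2 and 5 without DMSO replicate 1 or without APH replicate 2. The 26 called in the ATM knock-out line became 15 without APH replicate 2, and the 11 called in wtATMIN became 6 without DMSO replicate 2 and 7 without APH replicate 1. Fits of the compared groups alone also moved them: the 26 called in the ATM knock-out line became 7, and the 20 called in the ATMIN knock-out line became 31. Scaled to library size alone, 6 members were higher and 1 lower in wtATM, in place of 5 and 6, and 6 and 20 in the ATM knock-out line, in place of 9 and 17.

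Hspa5 was the only member to rise in all 4 lines at 4 h. It had 974 and 1160 CPM in APH in the ATM knock-out line, against 668 and 654 CPM in DMSO, and 1180 and 1250 CPM in wtATM, against 1020 and 931 CPM. The ATMIN knock-out line had 1750 and 1780 CPM, against 1460 and 1390 CPM, and wtATMIN had 1590 and 1760 CPM, against 1200 and 1220 CPM. No APH library overlapped the DMSO libraries of its line. Responses were 0.69 ± 0.07, 0.32 ± 0.07, 0.31 ± 0.07 and 0.48 ± 0.07, with adjusted p between 9.04e-09 and 0.00257 (edgeR quasi-likelihood test, Benjamini-Hochberg), and the call in wtATM was lost without DMSO replicate 2 or without APH replicate 2.

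Other ER genes rose in fewer lines. Xbp1 had 59.6 and 58.2 CPM in APH in the ATM knock-out line at 4 h, against 38.4 and 42.5 CPM in DMSO, and 69.9 and 86.7 CPM in wtATM, against 72.9 and 62.0 CPM. It had 48.3 and 46.6 CPM in the ATMIN knock-out line, against 42.7 and 41.7 CPM, and 42.9 and 43.1 CPM in wtATMIN, against 42.7 and 45.2 CPM. Its groups overlapped in both wild-type lines, and it rose in the ATM knock-out line (0.54 ± 0.10), with responses of 0.21 ± 0.09, 0.17 ± 0.10 and -0.03 ± 0.10 in wtATM, the ATMIN knock-out line and wtATMIN. Dnajb9 rose by 0.96 in the ATM knock-out line and 0.59 in wtATM. Manf, a secreted ER-stress protein, rose by 0.29 and 0.39 in the ATM knock-out and ATMIN knock-out lines, and Creld2, an ER protein with disulfide isomerase activity, rose by 0.29 and 0.28 in wtATM and the ATMIN knock-out line. The Dnajb9 call in wtATM and both Creld2 calls were lost without 3 of the 4 libraries of the comparison, and the Manf call in the ATM knock-out line without DMSO replicate 2. Manf counts can be shared with Dcaf1 on the other strand.

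**Figure D3:**
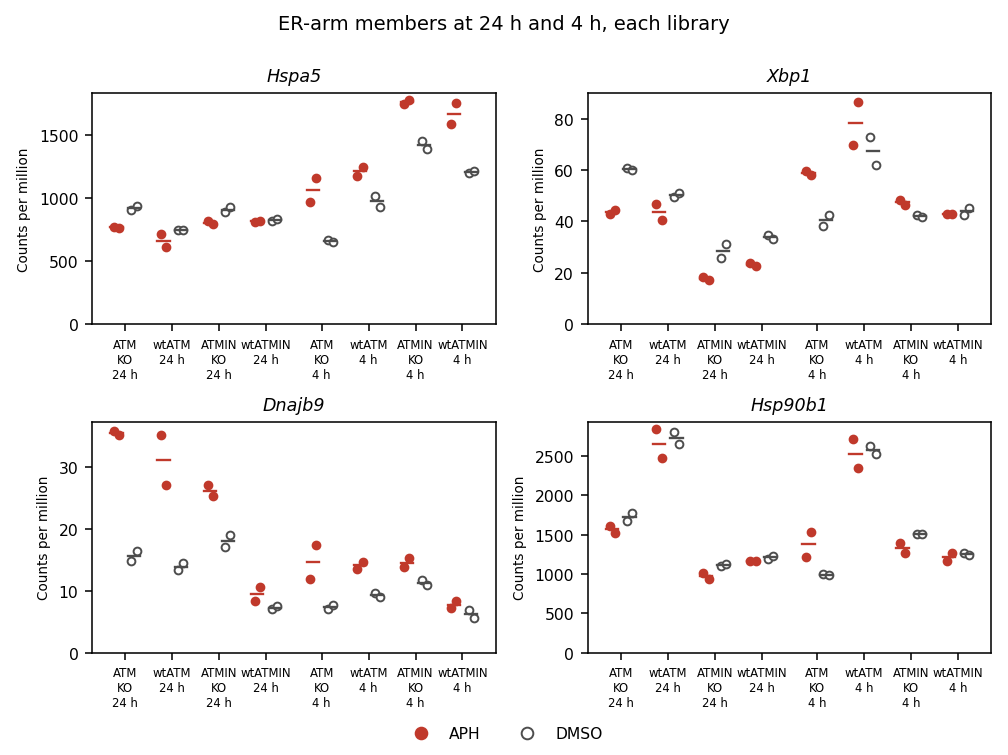
CPM (linear axis from 0) of 4 ER-arm genes in each library at 24 h (left of each panel) and 4 h (right), with APH as filled and DMSO as open circles and short lines at the means of 2 libraries. Hspa5 lies higher in APH than in DMSO in all 4 lines at 4 h, and Xbp1 lies lower in APH in all 4 lines at 24 h.

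Falls in the ATF4 arm at 4 h included the RNA of ATF4 itself. Atf4 had 265 and 289 CPM in APH in the ATM knock-out line, against 344 and 394 CPM in DMSO, and 261 and 288 CPM in wtATM, against 316 and 339 CPM. It had 254 and 256 CPM in the ATMIN knock-out line, against 332 and 340 CPM, and 224 and 235 CPM in wtATMIN, against 263 and 279 CPM. All APH libraries lay below the DMSO libraries of their line. The responses were -0.41 ± 0.07, -0.26 ± 0.07, -0.40 ± 0.07 and -0.24 ± 0.07, with adjusted p between 2.34e-05 and 0.014 (edgeR quasi-likelihood test, Benjamini-Hochberg).

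Ddit3 had 33.0 and 26.3 CPM in APH in the ATM knock-out line at 4 h, against 43.3 and 46.5 CPM in DMSO, and 61.9 and 67.2 CPM in wtATM, against 76.1 and 84.5 CPM. It had 22.1 and 19.8 CPM in the ATMIN knock-out line, against 36.7 and 42 CPM, and 14.9 and 13.4 CPM in wtATMIN, against 17.0 and 19.3 CPM. Groups did not overlap in any line. It fell by 0.59, 0.32, 0.90 and 0.37 on the log2 scale in that order, with adjusted p between 1.96e-08 and 0.0279 (edgeR quasi-likelihood test, Benjamini-Hochberg). For Atf4 and Ddit3 alike, the wtATM call was lost without DMSO replicate 2, without APH replicate 1 and with scaling to library size alone. The wtATMIN call was lost without DMSO replicate 2, and also without APH replicate 1 for Atf4 and without APH replicate 2 for Ddit3.

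Trib3 had 11.4 and 9.02 CPM in APH in the ATM knock-out line at 4 h, against 12.6 and 18.5 CPM in DMSO, and 23.6 and 24.4 CPM in wtATM, against 33.4 and 37.5 CPM. It had 22.9 and 22.3 CPM in the ATMIN knock-out line, against 50 and 46.6 CPM, and 10 and 10.7 CPM in wtATMIN, against 12 and 13 CPM. It was lower in every APH library than in the DMSO libraries of its line, and it fell in the ATM knock-out (-0.58 ± 0.14), wtATM (-0.57 ± 0.11) and ATMIN knock-out (-1.09 ± 0.11) lines, with a response of -0.27 ± 0.14 in wtATMIN. The adjusted p were 0.00248, 0.000734, 8.5e-10 and 0.191 (edgeR quasi-likelihood test, Benjamini-Hochberg). The ATM knock-out call was lost without DMSO replicate 2 or without APH replicate 2, and the wtATM call without DMSO replicate 2.

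Slc38a2, the glutamine and alanine carrier SNAT2, had 387 and 393 CPM in APH in the ATM knock-out line at 4 h, against 371 and 350 CPM in DMSO, and 426 and 420 CPM in wtATM, against 480 and 485 CPM. It had 290 and 285 CPM in the ATMIN knock-out line, against 399 and 383 CPM, and 236 and 240 CPM in wtATMIN, against 301 and 277 CPM. The ATM knock-out line was thus the one line with higher levels in APH (0.11 ± 0.06), and the falls elsewhere were -0.19, -0.44 and -0.28. Aldh18a1 had 144 and 127 CPM in APH in the ATM knock-out line, against 166 and 175 CPM in DMSO, 115 and 122 CPM in wtATM, against 140 and 138 CPM, and 169 and 174 CPM in the ATMIN knock-out line, against 213 and 233 CPM. In wtATMIN it had 171 and 173 CPM in APH, against 183 and 177 CPM in DMSO. It fell by 0.33, 0.23 and 0.38 on the log2 scale in the first 3 lines and had a response of -0.07 in wtATMIN. In wtATM the Slc38a2 call was lost with any 1 library left out, and the Aldh18a1 call without either DMSO library or without APH replicate 1. Ddit4 fell by 1.39 on the log2 scale in the ATMIN knock-out line and by 0.88 in wtATMIN, with responses of -0.21 and -0.19 in the ATM knock-out and wtATM lines.

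Across lines, 5 ATF4-arm genes and no ER-arm gene fell in at least 3 of 4 lines at 4 h, and 1 ER-arm gene and no ATF4-arm gene rose in as many. Of all genes tested, 3.07% fell and 2.32% rose in at least 3 lines.

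Responses at 24 h and at 4 h were then compared within each line by the difference of the APH responses (24 h minus 4 h). In the ATF4 arm the 24 h response was higher for 20 genes and lower for none in the ATM knock-out line, higher for 12 and lower for none in wtATM, higher for 11 and lower for 2 in the ATMIN knock-out line, and higher for 10 and lower for 2 in wtATMIN. In the ER arm it was higher for 1 and lower for 6, higher for 0 and lower for 5, higher for 1 and lower for 3, and higher for 0 and lower for 3 in the same lines. Of all genes tested, 22%, 15.1%, 21.1% and 18.6% were called in either direction, with 12.1%, 7.87%, 10.8% and 9.12% higher and 9.89%, 7.24%, 10.3% and 9.44% lower at 24 h. In all, 8 ATF4-arm genes had a higher response at 24 h in all 4 lines, against 1.83% of all genes, and 2 ER-arm genes had a lower one in all 4 lines, against 1.21% of all genes. Nupr1 led with differences of 1.44 to 2.07, followed by Ddit4 with 1.36 to 2.08 and Trib3 with 0.66 to 2.23. Sesn2 had 0.97 to 1.69, Chac1 0.64 to 2.00, Ppp1r15a 0.74 to 1.65, Ddit3 0.67 to 1.69 and Gpt2 0.34 to 0.76. A higher response at 24 h is not by itself a higher level in APH, since DMSO levels also changed between the times. The ATM knock-out counts also use that line's APH libraries at 4 h, which had 97900 and 24362 CPM of Gm42418. Replicate 2 had the lowest total count, 9321329. Reads lay in 155 and 406 of 1434 olfactory and vomeronasal receptor genes in replicates 1 and 2, and the part of these features in the counts was not tested. Hspa5 differed by -0.96 to -0.49, with adjusted p of at most 0.000494, and Xbp1 by -1.01 to -0.42, with adjusted p of at most 0.0267 (edgeR quasi-likelihood test, Benjamini-Hochberg). The Xbp1 call in wtATM was lost without any 1 of 5 of its 8 libraries, and the Gpt2 calls in the wtATMIN and ATMIN knock-out lines were lost without 5 and 6 of 8. Scaled to library size alone, where the median of all genes was 0.11 in the ATM knock-out line, the ATMIN knock-out line had 14 members higher and 2 lower, in place of 12 and 5, and wtATMIN 13 and 3, in place of 10 and 5.

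The DMSO cultures also differed between the times. Between 24 h and 4 h of DMSO, the ATM knock-out line had 10 members higher and 10 lower, and wtATM 5 and 30. The ATMIN knock-out line had 8 and 20, and wtATMIN 2 and 31. In the ATF4 arm the counts were 5 and 10, 4 and 21, 6 and 11, and 2 and 25 in the same order of lines. In the ER arm they were 5 and 0, 1 and 9, 2 and 9, and 0 and 6. Of all genes, 24.6%, 23.1%, 23.4% and 29.1% were higher and 24.1%, 23.3%, 23.8% and 26.3% lower. In either direction 47.6%, 83.3%, 66.7% and 78.6% of members were called, where 48.7%, 46.4%, 47.2% and 55.5% of all genes were called. Scaled to library size alone, the ATMIN knock-out line had 11 members higher and 14 lower, in place of 8 and 20. The median of all genes was 0.12 there and 0.16 in wtATMIN. Cebpb, Ddit4, Chac1, Slc7a5 and Sars were lower at 24 h in all 4 lines, and Cebpg and Slc38a2 were higher. Cebpb had -2.77 to -1.40, Ddit4 -1.04 to -0.50 and Chac1 -1.28 to -0.33 on the log2 scale. Trib3 had -0.13, -1.58, 0.37 and -0.88 in the ATM knock-out, wtATM, ATMIN knock-out and wtATMIN lines. Ddit3 had -0.49, -1.15, 0.23 and -0.17 in the same order. Trib3 in the ATM knock-out line and Ddit3 in wtATMIN did not pass the test. The differences of responses between the times use these DMSO libraries, so they are not independent of these changes. Hspa5 differed in direction between lines, at 0.48 in the ATM knock-out line and -0.38, -0.65 and -0.54 in the wtATM, ATMIN knock-out and wtATMIN lines. The labels give no batch, and time and any difference in handling between the time points cannot be told apart. The ribosomal Gm42418 reads given above moved with it, and their part in these results was not tested.

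Whether a response depended on the line was tested as the difference of APH responses, knock-out minus wild type. In the ATMIN pair at 24 h the APH response was lower in the ATMIN knock-out line than in wtATMIN for 9 members and higher for 1, against 1.42% and 1.01% of all genes tested (2.43% in either direction), and the median difference of the ATF4 arm was -0.22, beside 0.01 over all genes. All 9 belong to the ATF4 arm. Trib3 differed by -2.39 ± 0.16 (adjusted p = 2.79e-12), Ddit3 by -1.15 ± 0.14 (adjusted p = 2.1e-06) and Sesn2 by -1.10 ± 0.16 (adjusted p = 4.73e-05), all by the edgeR quasi-likelihood test (Benjamini-Hochberg). Chac1 differed by -1, Ddit4 by -0.85, Gpt2 by -0.64, Ppp1r15a by -0.56, Nupr1 by -0.50 and Slc7a1 by -0.41. Eif2ak3, which encodes the ER-stress kinase PERK, was the one member with a higher response in the knock-out line, at 0.54. Without APH replicate 2 of the ATMIN knock-out line the 10 calls became 6. The Nupr1, Ppp1r15a, Slc7a1 and Eif2ak3 calls were each lost without at least 3 different single libraries, whereas those of Trib3, Ddit3, Sesn2, Chac1, Ddit4 and Gpt2 held under all 14 alternatives run.

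For Trib3, Sesn2 and Ddit3 the lines stood further apart in DMSO than in APH. Trib3 in DMSO at 24 h had 63.8 and 61.2 CPM in the ATMIN knock-out line, against 7.12 and 6.38 CPM in wtATMIN, and in APH 46.2 CPM in each library of the knock-out line, against 26.3 CPM in each of wtATMIN. Sesn2 in DMSO had 36.8 CPM in each knock-out library, against 13.3 and 10.5 CPM, and in APH 53.7 and 52.7 CPM, against 37.3 and 37.1 CPM. Ddit3 in DMSO had 43.1 and 49.1 CPM, against 16.6 and 15.6 CPM, and in APH 40.3 and 38.0 CPM, against 31.8 and 29.1 CPM. The knock-out libraries were above the wtATMIN libraries for these 3 genes in both treatments, and further above them in DMSO. The difference of responses and the DMSO difference share the DMSO libraries, so they are given side by side and not as independent results.

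At 4 h the ATMIN pair differed in 3 members, all lower in the knock-out line, where 0.325% of all genes were lower and 0.671% were called. Gpt2, the alanine aminotransferase, had 35.0 and 33.8 CPM in APH in the ATMIN knock-out line, against 53.5 and 54.3 CPM in DMSO, and 61.6 and 57.7 CPM in APH in wtATMIN, against 59.0 and 58.9 CPM in DMSO. Its groups were apart in the knock-out line and overlapped in wtATMIN, and the responses differed by -0.66 ± 0.11 (adjusted p = 0.000739, edgeR quasi-likelihood test, Benjamini-Hochberg). Trib3 differed by -0.82 ± 0.17 and Vldlr by -0.58 ± 0.14. Vldlr had 41.0 and 39.2 CPM in APH in the knock-out line, against 70.8 and 71.0 CPM in DMSO, and 32.7 and 35.0 CPM in APH in wtATMIN, against 42.5 and 37.5 CPM in DMSO. The Vldlr call was lost without any 1 of 7 of the 8 libraries, and the count of 3 became 1 without wtATMIN APH replicate 2 or without ATMIN knock-out DMSO replicate 1.

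In the ATM pair, 2 members at 24 h and 5 at 4 h differed in their response. These shares of 4.76% and 11.9% of the members lay near those of all genes, given below. At 24 h, 2 members had a higher response in the ATM knock-out line and none a lower one, where 2.68% and 1.23% of all genes did so (3.92% in either direction). Slc38a2 had 644 CPM in each APH library of the ATM knock-out line, against 405 and 429 CPM in DMSO, and 829 and 805 CPM in APH in wtATM, against 703 and 697 CPM in DMSO. It rose in both lines and by more in the knock-out line, with a difference of 0.41 ± 0.08 (adjusted p = 0.00141, edgeR quasi-likelihood test, Benjamini-Hochberg). Slc7a1, the carrier of arginine and lysine, had 157 and 161 CPM in APH in the knock-out line, against 162 and 157 CPM in DMSO, and 131 and 144 CPM in APH in wtATM, against 181 and 185 CPM in DMSO. Its groups overlapped in the knock-out line and were apart in wtATM. Its difference of 0.41 ± 0.11 (adjusted p = 0.0268 by the same test) was lost without any 1 of 7 of the 8 libraries, so that the count of 2 became 1. For Trib3, Ddit3 and Chac1 at 24 h the differences did not pass the test, and their 95% intervals ran from -0.08 to 0.62, from -0.12 to 0.42 and from -0.09 to 0.56.

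At 4 h the ATM pair had 4 members with a higher and 1 with a lower response in the knock-out line, where 6.02% and 5.35% of all genes were called (11.4% in either direction). Hsp90b1, the ER Hsp90 chaperone, had 1220 and 1530 CPM in APH in the ATM knock-out line, against 997 and 982 CPM in DMSO, and 2710 and 2350 CPM in APH in wtATM, against 2620 and 2530 CPM in DMSO. Its groups were apart in the knock-out line and overlapped in wtATM, and the responses differed by 0.50 ± 0.11 (adjusted p = 0.00475, edgeR quasi-likelihood test, Benjamini-Hochberg). Hspa5 differed by 0.37 ± 0.10, Slc38a2 by 0.30 ± 0.08, Nupr1 by 0.60 ± 0.19 and Shmt2, of serine and glycine metabolism, by -0.32 ± 0.10. Hsp90b1 reads can be shared with 1810014B01Rik on the other strand. The count of 5 became 1 without APH replicate 2 or DMSO replicate 2 of the ATM knock-out line or without DMSO replicate 1 of wtATM, and 13 without APH replicate 1 of the ATM knock-out line. It was 0 when the compared groups were fitted alone, and scaled to library size alone 1 member was higher and 7 were lower, in place of 4 and 1. Replicates 1 and 2 of this knock-out line in APH at 4 h had reads in 155 and 406 of 1434 olfactory and vomeronasal receptor genes, against 17 to 95 in the other 30 libraries, and the part of this in the result was not tested.

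Set against its wild-type line, the ATMIN knock-out line carried higher ATF4-arm RNA without drug. At 24 h in DMSO, 24 of 31 ATF4-arm genes were higher and 1 lower, and 4 of 11 ER-arm genes were higher and 3 lower, where 23.4% of all genes were higher and 26.2% lower (49.6% in either direction). The median over the ATF4 arm was 0.59, beside -0.01 for all genes. Trib3 was 3.20 ± 0.12 higher on the log2 scale, Atf5 2.36 ± 0.13, Chac1 1.92 ± 0.12, Sesn2 1.61 ± 0.12, Nupr1 1.57 ± 0.10, Ddit3 1.51 ± 0.10 and Pycr1, of proline synthesis, 1.49 ± 0.12, all with adjusted p of at most 7.75e-13 (edgeR quasi-likelihood test, Benjamini-Hochberg). Atf5 had 170 and 166 CPM in the knock-out line, against 33.7 and 31.3 CPM in wtATMIN. Chac1 had 31.1 and 27.2 CPM, against 8.30 and 6.93 CPM. The groups were far apart for both, which were picked after their values were seen. Of the synthesis enzymes 7 of 9 were higher, including Asns by 0.96 ± 0.07, and all 4 tRNA synthetases were higher. Slc7a5 was the exception, at -0.43 ± 0.08. Psph, at 1.29, can share reads with Cct6a on the other strand. Marker RNA of cell types moved with this contrast. The 10 fibroblast markers summed, at 24 h of DMSO, to 24000 and 22600 CPM for the ATMIN knock-out line, against 10200 CPM in each library of wtATMIN, and the 6 epithelial markers to 0.299 and 0.253 CPM, against 10.8 CPM in each. At least 3 of the 6 epithelial markers were at 0 in each of these libraries, and the part of these markers in the result was not tested.

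At 4 h in DMSO, 17 of 31 ATF4-arm genes were higher in the ATMIN knock-out line and 3 lower, and 5 of 11 ER-arm genes were higher and 1 lower, where 21.9% and 23% of all genes were called (44.9% in either direction). Trib3 was 1.95 higher and Atf5 1.26. Scaled to library size alone, 20 of the 42 members were higher and 8 lower, in place of 22 and 4. In APH 21 ATF4-arm genes were higher and 5 lower at 24 h, and 10 were higher and 8 lower at 4 h, where 23.8% of all genes were higher and 26.8% lower at 24 h and 19.8% and 22.3% at 4 h (50.6% and 42.1% in either direction). In all 4 conditions 11 of the 42 members were higher in the ATMIN knock-out line. They were Atf5, Ddit3, Trib3, Nupr1, Chac1, Psph, Pycr1, Slc7a3, Slc38a2, Dnajb9 and Creld2. Slc7a5 alone was lower in all 4. Of all genes, 11.4% were higher and 13.2% lower in all 4. Dnajb9 was 0.86 to 1.47 higher.

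**Figure D4:**
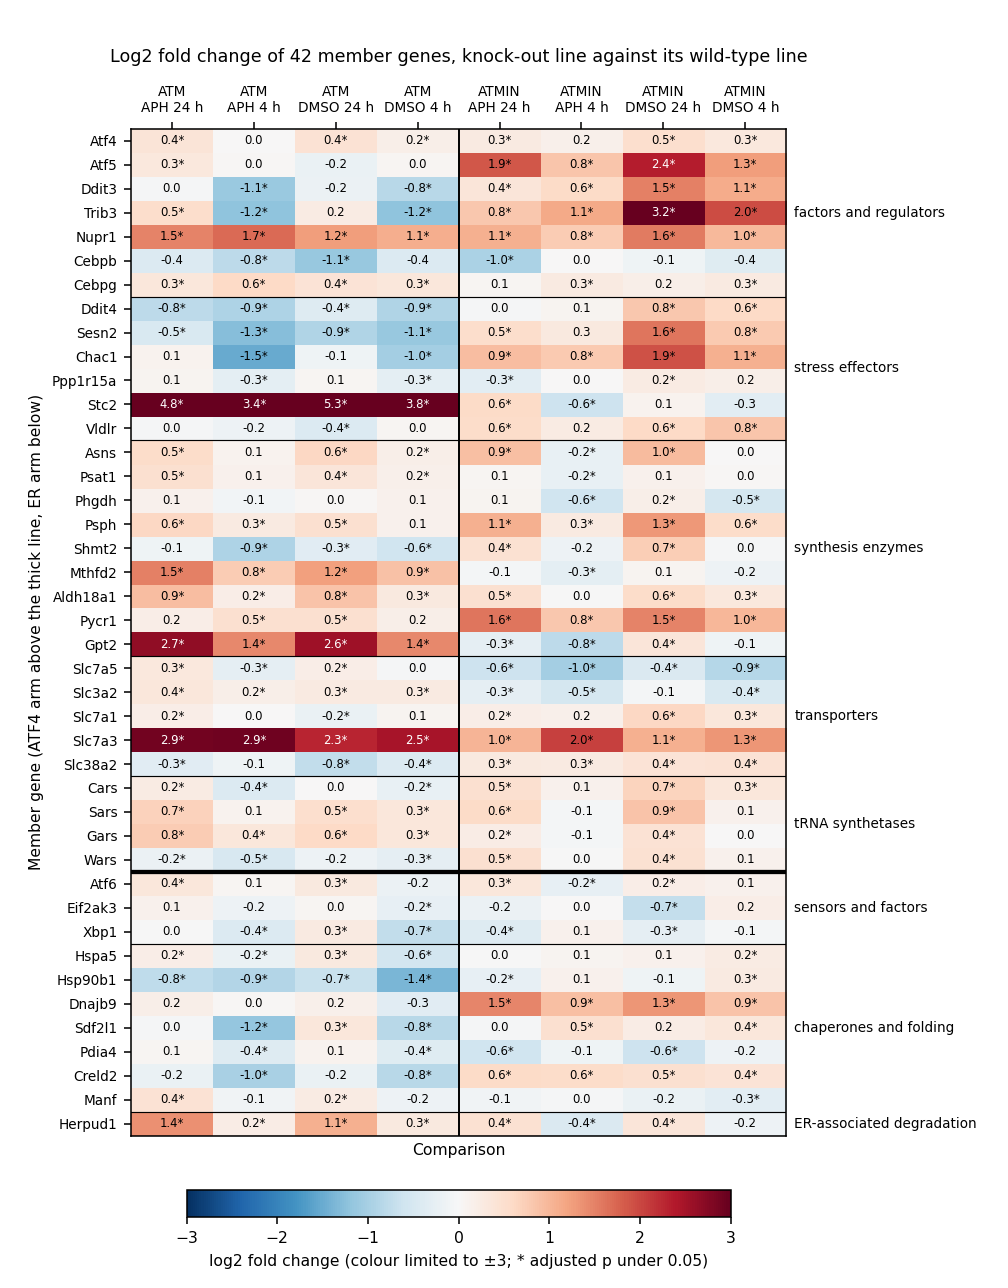
Log2 fold change of each knock-out line over its wild-type line for all 42 members (rows, by role) in APH and DMSO at 24 h and 4 h, with the ATM pair left and the ATMIN pair right and a star for an adjusted p under 0.05. Stc2 and Slc7a3 are deep red in the ATM pair, and Gpt2 is so at 24 h and paler at 4 h. Trib3 and Atf5 are deepest in the ATMIN pair in DMSO at 24 h.

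The ATM knock-out line also differed from wtATM without drug. At 24 h in DMSO 16 ATF4-arm genes were higher and 7 lower, and 6 ER-arm genes were higher and 1 lower, where 29.5% of all genes were higher and 29.8% lower (59.3% in either direction). Stc2 in the ATM knock-out line had 155 and 152 CPM, against 3.63 and 4.42 CPM in wtATM, and was 5.26 ± 0.11 higher on the log2 scale. Gpt2 had 112 and 117 CPM, against 19.8 and 19.2 CPM, and was 2.55 ± 0.08 higher, and Slc7a3 had 18.3 and 17.2 CPM, against 3.69 and 3.54 CPM, and was 2.29 ± 0.17 higher. None of these 3 genes had overlapping groups, but they were picked after their values were seen, so this adds no further support. Trib3, Chac1 and Ddit3 did not pass the test there, at 0.25, -0.14 and -0.18, and Sesn2 was lower at -0.91 ± 0.12. At 4 h all of Trib3, Chac1 and Ddit3 were lower in the ATM knock-out line, at -1.20, -1.03 and -0.84 in DMSO and at -1.21, -1.52 and -1.11 in APH, with adjusted p of at most 1.68e-09 (edgeR quasi-likelihood test, Benjamini-Hochberg). The adjusted p of Stc2 was 3.26e-30 and that of Sesn2 3.11e-08 (edgeR quasi-likelihood test, Benjamini-Hochberg). Fibroblast markers summed, in the same libraries, to 13400 and 12900 CPM for ATM knock-out cells, against 19700 and 19600 CPM in wtATM, and blood markers to 12 and 13.4 CPM, against 22.7 and 24.6 CPM, and their part in the result was not tested.

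At 4 h in DMSO the ER arm was lower in the ATM knock-out line, with 7 of 11 genes lower and 1 higher and a median of -0.36, where 27.9% of all genes were lower and 27.3% higher (55.2% in either direction). Hsp90b1 had 997 and 982 CPM, against 2620 and 2530 CPM in wtATM, a difference of -1.38 ± 0.08, and Hspa5 had 668 and 654 CPM, against 1020 and 931 CPM, a difference of -0.56 ± 0.07. Creld2 and Sdf2l1 differed by -0.84 each and Xbp1 by -0.73. The groups did not overlap for Hspa5, or for Hsp90b1, which was picked after its values were seen. The ATF4 arm had 13 genes higher and 10 lower at that time. In APH 19 ATF4-arm genes were higher and 4 lower at 24 h, and 11 were higher and 11 lower at 4 h, where 31.5% of all genes were higher and 29.9% lower at 24 h and 30.3% and 28.6% at 4 h (61.3% and 58.9% in either direction). Scaled to library size alone, 8 of the 42 members were higher and 20 lower in APH at 4 h, in place of 12 and 17. In all 4 conditions 10 of the 42 members were higher, among them Stc2, Slc7a3, Gpt2, Nupr1 and Mthfd2. Lower in all 4 were 3 of 42, namely Hsp90b1, Ddit4 and Sesn2. Of all genes, 18% were higher and 17.7% lower in all 4, so such differences were common beyond the members. Of the 10 higher members, Nupr1 and Slc7a3 were higher in all 4 conditions in the ATMIN pair as well, where 11.4% of all genes were. How many of all genes were higher in every condition of both pairs was not counted, so this overlap has no share to be set against.

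Further genes of these pathways, which are not among the 42, were counted in the same comparisons. These counts stand beside all-gene shares called, in either direction, of 27.9%, 28.7%, 30.2% and 28.8% at 24 h of APH and of 29.4%, 5.58%, 20.4% and 15% at 4 h in the ATM knock-out, wtATM, ATMIN knock-out and wtATMIN lines, and several of them lie near those shares. Of 15 further ATF4 amino acid genes, 6 rose and 1 fell at 24 h of APH in ATM knock-out cells, 4 and 4 in wtATM, 3 and 6 in the ATMIN knock-out line, and 5 and 3 in wtATMIN. Atf3, a stress-induced transcription factor, rose by 1.98, 1.67, 0.68 and 2.76 in those lines, and its response differed by -2.07 between the ATMIN knock-out line and wtATMIN (adjusted p = 3.57e-06, edgeR quasi-likelihood test, Benjamini-Hochberg). Of 17 tested further ER genes, 7, 4, 3 and 3 rose at 4 h of APH in the same order of lines and 1 fell, in the ATMIN knock-out line. Dnajc3, an ER co-chaperone that inhibits PERK, had responses at 4 h of 0.68, 0.24, 0.21 and 0.35. Of 13 genes for kinases and eIF2 machinery, 3 rose and 3 fell at 24 h in ATM knock-out cells, 2 and 5 in wtATM, 2 and 3 in the ATMIN knock-out line, and 2 and 0 in wtATMIN, and Eif2ak2, the kinase that senses double-stranded RNA, rose in all 4 lines by 0.62, 0.56, 0.74 and 0.39. Of 16 tested other tRNA synthetases, 13 fell and none rose at 24 h in wtATM, while 4 fell and 2 rose in the ATM knock-out line, 5 fell and 1 rose in the ATMIN knock-out line, and 2 fell and 1 rose in wtATMIN.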

How the data were processed

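RNA of 32 samples in 16 groups of 2 was sequenced. The table of read counts per gene was deposited by the authors, as were the gene lengths used here for RPKM. Per the submitters' processing notes the tools were Bowtie2 2.4.0, TopHat2 2.0.13 and DESeq2 1.6.3 and the build mm10; the counting tool and its strand setting are not given in the sources used here. A further 120 per-sample columns of the deposited comparison files were not used.

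Counts were fitted over all 32 samples with edgeR 4.0.16 in R 4.3.3 (quasi-likelihood test, TMM scaling, filterByExpr with a minimum count of 10), which left 18484 genes. A fold change was called at a Benjamini-Hochberg adjusted p below 0.05 within each of 28 comparisons. Standard errors were derived from the test, as the absolute log2 fold change over the square root of its F statistic. The 95% intervals rest on these derived standard errors. CPM are reads per 1000000 reads of the TMM-scaled library. Values of every sample are given for members called the same way in at least 3 lines at a time of APH (up to 6 per arm, by mean absolute fold change), for up to 3 members per difference between a knock-out and its wild type (by p), and for Atf4, Ddit3, Hspa5 and Xbp1. Those of Asns, Atf5, Stc2 and Slc7a3, of Gpt2 in DMSO and of Hsp90b1 and Chac1 between lines were added after their values were seen. Members and gene lists were chosen with earlier results of these data known. Alternatives were RLE scaling, library size alone, no filter, a replicate block, DESeq2 1.42.0, the compared groups fitted alone and each library left out.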

Additional observations from a re-analysis of the deposited data

Results flagged for a closer look

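Differences between lines or times are listed here where a test of the difference itself passed (edgeR quasi-likelihood test, Benjamini-Hochberg). Groups of 2 samples are too small to look for single samples that lie far from the others.

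Between the ATMIN knock-out line and wtATMIN, the APH response differed for 10 members at 24 h. The differences were -2.39 for Trib3, -1.15 for Ddit3, -1.10 for Sesn2, -1 for Chac1, -0.85 for Ddit4, -0.64 for Gpt2, -0.56 for Ppp1r15a, -0.50 for Nupr1, -0.41 for Slc7a1 and 0.54 for Eif2ak3. At 4 h it differed for 3 members, by -0.82 for Trib3, -0.66 for Gpt2 and -0.58 for Vldlr. Between the ATM knock-out line and wtATM it differed at 24 h for 2 members, by 0.41 for Slc38a2 and 0.41 for Slc7a1. At 4 h it differed for 5 members there, by 0.50 for Hsp90b1, 0.37 for Hspa5, 0.60 for Nupr1, 0.30 for Slc38a2 and -0.32 for Shmt2. In the ATMIN pair 23.8% of members were called at 24 h and 7.14% at 4 h, where 2.43% and 0.671% of all genes were called. In the ATM pair the shares of members, 4.76% and 11.9%, lay near those of all genes, 3.92% and 11.4%. The count of the ATM pair at 4 h depended on the processing, as given below.

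Between 24 h and 4 h the APH response differed for 27 members of the ATM knock-out line, 17 of wtATM, 17 of the ATMIN knock-out line and 15 of wtATMIN. That is 64.3%, 40.5%, 40.5% and 35.7% of members, where 22%, 15.1%, 21.1% and 18.6% of all genes were called. For 10 members the difference passed the test in all 4 lines. Its mean over the 4 lines was 1.74 for Nupr1, 1.71 for Ddit4, 1.39 for Trib3, 1.33 for Sesn2, 1.32 for Chac1, 1.29 for Ppp1r15a, 1.23 for Ddit3 and 0.52 for Gpt2. It was -0.70 for Xbp1 and -0.61 for Hspa5. Of all genes, 1.83% had a higher and 1.21% a lower response at 24 h in all 4 lines. DMSO levels also differed between the times, as given above. The 27 calls of the ATM knock-out line use its APH libraries at 4 h, whose features are given above and whose part was not tested.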

How the results depend on the processing

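No called member changed direction under any alternative. Of 602 calls of members, 594 held with RLE scaling, 539 with library size alone, 568 with no filter, 597 with the replicate block, 593 with DESeq2 and 556 with the compared groups fitted alone, and 2359 of 2792 held with 1 library left out. Counts of called members that moved by more than 1.5 times were as follows. The APH difference of the ATM pair at 24 h (2 members) gave 1 with RLE scaling, 1 with library size alone, 5 with no filter, 4 with the compared groups alone, and 1 to 3 with 1 library left out. That at 4 h (5 members) gave 8 with library size alone, 0 with the compared groups alone and 1 to 13 with 1 library left out. The ATMIN difference at 24 h (10 members) gave 17 with the compared groups alone and 6 to 8 with 1 library left out, and that at 4 h (3 members) gave 5 with no filter and 1 to 3. The APH response at 4 h gave 7 with library size alone and 0 to 8 with 1 library left out in wtATM (11 members), 7 with the compared groups alone and 15 to 24 in the ATM knock-out line (26), 31 with the compared groups alone in the ATMIN knock-out line (20), and 6 to 11 in wtATMIN (11). At 24 h it gave 15 with library size alone in the ATMIN knock-out line (24). The cause was not tested. With the replicate block the ATMIN difference at 24 h had 10 members and the wtATM response at 4 h had 10. Samples of equal replicate number showed no consistent relation. Over 20 pairs of groups the correlation of deviations ran from -0.43 to 0.25, with 4 over 0.1. The labels do not say how replicates were made, so these values cannot exclude pairing in single comparisons. Leaving out 1 library leaves a lone sample, which is assumed to vary like the other groups. The lowest member count in a library was 9 reads, for Slc7a3.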
